A study of Homo sapiens with 6 samples.

Results

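The 5 Mb of chromosome arm on either side of the large satellite blocks of chromosomes 1, 9 and 16 were examined for nascent-strand peaks. A peak was a member if it started in one of 6 such flanks of the T2T-CHM13 assembly. On chromosome 1 the flanks ran from 116.5 to 121.5 Mb (short arm) and from 142 to 147 Mb (long arm). On chromosome 9 they ran from 40 to 45 Mb and from 76.7 to 81.7 Mb, and on chromosome 16 from 30.5 to 35.5 Mb and from 52.2 to 57.2 Mb. The rule used position alone and no measured value, but the flanks were chosen with earlier results of these data known. It took 1770 of 181215 peaks in control 1, 2264 of 235865 in control 2, 3250 of 330265 in siORCA 1 and 2016 of 198518 in siORCA 2, which is 9300 of 945863 peaks in all. Where peaks of the 4 lists overlapped or touched, they were joined into regions, and the flanks held 5225 of 535576 such regions.

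Replication origins are the sites at which new DNA strands begin, and nascent-strand sequencing (NS-seq) finds them by isolating short strands that carry an RNA primer and so withstand an exonuclease. The satellite blocks hold long arrays of classical human satellite repeats, packed as constitutive heterochromatin beside the centromeres. As bounded here, each block runs from its short-arm flank to its long-arm flank and so spans the centromere too. Which repeats border either edge was not looked at. The arm sequence next to the blocks is known for segmental duplications. ORCA, encoded by LRWD1, is a partner of the origin recognition complex and is known to associate with heterochromatin.

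The samples came from U2OS, a human osteosarcoma line. Cells received either the control siRNA gl3 or siORCA, an siRNA against ORCA, and all were grown under the same stated conditions. There were 2 nascent-strand samples per transfection, each with its own list of broad peaks, and 1 genomic DNA sample per transfection, not analysed here. Whether the replicates were separate cultures is not stated in the labels, so every p-value measures the spread between these samples only, which may be technical. The assay gives no measure of ORCA itself, and the labels state no time after transfection.

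The lists differ in length. They cover between 58514 kb (control 1) and 86198 kb (siORCA 1), and the median fold enrichment the authors gave their peaks is 3.82 and 3.94 in the control lists and 4.51 and 4.21 in the siORCA lists. No list gives read counts, so depth is unknown. Coverage is therefore given as a share of the covered bp of the same list, where covered bp is the summed length of peaks, or as a relative density, which is the covered bp per Mb divided by that of the genome outside flanks and blocks in the same list. The 6 flanks as a whole had relative densities of 0.95 and 0.957 in the control lists and 0.999 and 0.975 in the siORCA lists, close to that of the rest of the genome. Inside the blocks it was 0.0988, 0.0886, 0.0993 and 0.0983. Placement of reads from repeats and DNA copy number are not given, so these are densities of listed peaks, not of origins.

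How coverage ran from the block edge outwards differed from flank to flank. The flanks of chromosome 16 were the most densely covered of the 6, at relative densities of 1.44, 1.27, 1.29 and 1.28 on the short arm and 1.63, 1.44, 1.57 and 1.5 on the long arm, in the order control 1, control 2, siORCA 1, siORCA 2. The flanks of chromosome 9 were the sparsest, with 0.581 to 0.68 on the short arm and 0.577 to 0.711 on the long arm over the 4 lists. The short-arm flank of chromosome 1 lay between them, at 0.774 to 0.926. Outside flanks and block, the rest of chromosome 16 had 1.74 to 1.86, that of chromosome 1 had 1.23 to 1.34 and that of chromosome 9 had 1.05 to 1.14, so each of these flanks was sparser than the rest of its own chromosome in all 4 lists. All of these are levels within a list, and in none of these 5 flanks did both siORCA lists lie above both control lists.

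**Figure D1:**
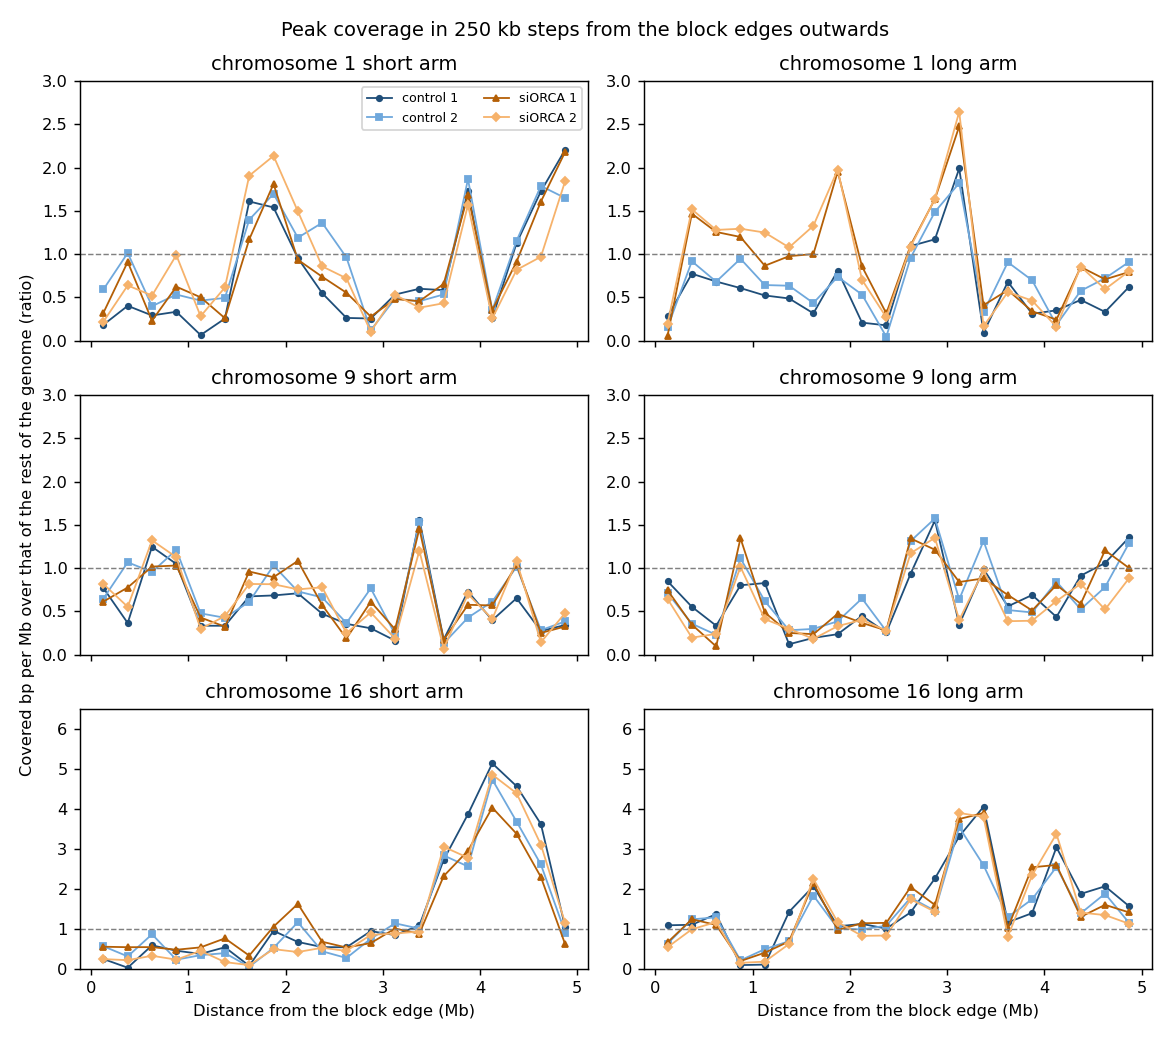
Relative density (covered bp per Mb over that of the rest of the genome in the same list) in 250 kb steps against distance from the block edge in Mb, 1 panel per flank and 1 line per list, with the dashed line at the level of the rest of the genome and a taller axis for chromosome 16. On the long arm of chromosome 1 both siORCA lines run above both control lines in 12 of 20 steps, whereas on chromosome 16 all 4 lines climb together to a mean of 4.69 on the short arm and 3.63 on the long arm.

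On chromosome 16 the dense part lay away from the edge. The first Mb of the short-arm flank had a relative density of 0.4 ± 0.131 (SD, n = 4 lists) and the fifth Mb 3.13 ± 0.446. The long-arm flank had 0.816 ± 0.0839 in its first Mb and 2.57 ± 0.231 in the fourth. Each of these rises is larger than the spread between the lists. The densest step of any flank, between 4000 and 4250 kb from the short-arm edge, held 24.6 and 26 kb of peaks in the control lists and 28.5 and 25.5 kb in the siORCA lists. The densest step of the long arm, between 3000 and 3250 kb from the edge, held 15.9, 19.5, 26.4 and 20.4 kb.

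On chromosome 9 the sides differed in this respect. The first Mb of its short-arm flank was the densest of the 5, at 0.911 ± 0.0603 (SD, n = 4 lists), and the fifth Mb had 0.518 ± 0.0692. Its long-arm flank went from 0.599 ± 0.052 in the first Mb through 0.353 ± 0.0377 in the second to 0.854 ± 0.0998 in the fifth, and the fifth Mb was denser than the first in all 4 lists. In 13 of 20 short-arm steps and 14 of 20 long-arm steps the coverage was below that of the rest of the genome in all 4 lists.

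The steps that touch the blocks were sparse on chromosome 1. The first 250 kb outside its block held 0.88, 3.25, 2.27 and 1.15 kb of peaks on the short arm and 1.34, 0.843, 0.408 and 1.03 kb on the long arm. The first 250 kb beside the other blocks had mean relative densities of 0.713 and 0.738 on chromosome 9 and 0.401 and 0.73 on chromosome 16, against 0.329 and 0.172 on chromosome 1. No step of any flank was without a peak. The shapes of the profiles were shared between lists: across the 120 steps, the covered bp of any pair of lists had a Pearson correlation of 0.815 to 0.881, given as a description, since neighbouring steps are not independent and the lists share one genome.

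Between the transfections, the flank that stood apart was the long arm of chromosome 1. Its share of covered bp was 0.0981% for control 1, 0.117% for control 2, 0.156% for siORCA 1 and 0.163% for siORCA 2. Both siORCA lists lay above both control lists, with means of 0.108% ± 0.0136 in control and 0.159% ± 0.00446 in siORCA (SD, n = 2), a ratio of 1.48. The difference of 0.0518 percentage points had a two-sided exact permutation p = 0.33, the smallest that 2 against 2 samples can give, and the Benjamini-Hochberg adjusted p over the 6 flanks was 1. In absolute length the flank held 57.4 and 78.7 kb of peaks in control and 134.7 and 104.1 kb in siORCA, in 207, 317, 456 and 333 peaks. The rest of chromosome 1 did not show this order, with 9.18% ± 0.543 of covered bp in control and 9.21% ± 0.0202 in siORCA.

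**Figure D2:**
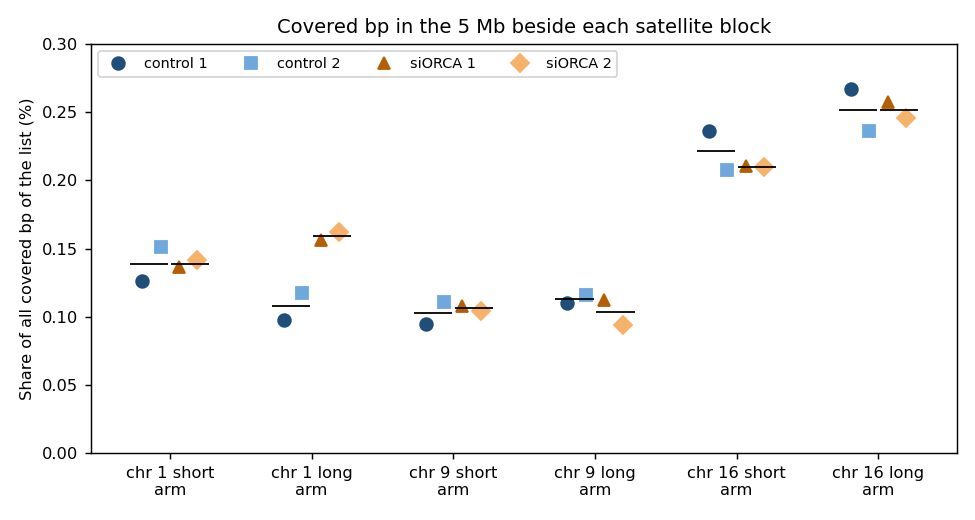
Share of the covered bp of each list, in percent, that lies in each of the 6 flanks, 1 point per list, with short black lines at the mean of the 2 control and the 2 siORCA lists. Only in the long-arm flank of chromosome 1 are both siORCA points above both control points, at 0.156% and 0.163% against 0.0981% and 0.117%.

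In the other 5 flanks the groups overlapped. The short-arm flank of chromosome 1 held 0.127, 0.152, 0.136 and 0.142% of covered bp. On chromosome 9 the shares were 0.095, 0.111, 0.108 and 0.104% on the short arm and 0.11, 0.116, 0.112 and 0.0944% on the long arm. On chromosome 16 they were 0.236, 0.208, 0.211 and 0.21% on the short arm and 0.267, 0.236, 0.257 and 0.245% on the long arm. The differences between group means in these flanks ran from -0.0117 to 0.00304 percentage points, each smaller than the larger of the SDs within the groups.

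Summed over chromosomes, the 3 long-arm flanks held 0.475 and 0.47% of covered bp in control and 0.526 and 0.502% in siORCA, a difference of 0.0419 percentage points (exact permutation p = 0.33, the smallest possible). The 3 short-arm flanks held 0.458 and 0.471% in control and 0.455% in either siORCA list, a difference of -0.00887 points with the same p by exact permutation. The groups did not overlap in either sum, and the differences had opposite signs. All 6 flanks together held 0.933, 0.94, 0.981 and 0.958%, a difference of 0.033 points. The long-arm flank of chromosome 1 alone differed by more than this sum did.

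Set against each other within a list, the long-arm and the short-arm side are compared at the same list length. Chromosome 16 had more covered bp on its long-arm side in 4 of 4 lists, with log2 ratios of 0.18, 0.18, 0.29 and 0.23 and a mean of 0.22 ± 0.05 (SD, n = 4). An exact sign-flip permutation over the 4 lists gave p = 0.125, which is the smallest it allows. Chromosome 9 had 0.21, 0.07, 0.06 and -0.14, and neither side was the denser in all 4 lists.

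On chromosome 1 the order of the sides turned between the groups. The log2 ratio of long-arm to short-arm covered bp was -0.37 in either control list and 0.20 in either siORCA list. The difference between the groups, 0.57, is far larger than the difference within a group, while its exact permutation p = 0.33 is the smallest possible. For all 3 chromosomes together the ratios were 0.05, -0.0028, 0.21 and 0.14. Against 0 the exact sign-flip permutation p was 0.25. The groups did not overlap on the other chromosomes either. The difference of siORCA from control was -0.18 on chromosome 9, opposite in sign, 0.08 on chromosome 16 and 0.15 for all 3 together, each with the same exact permutation p = 0.33. The difference on chromosome 1 was the largest in size.

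**Figure D3:**
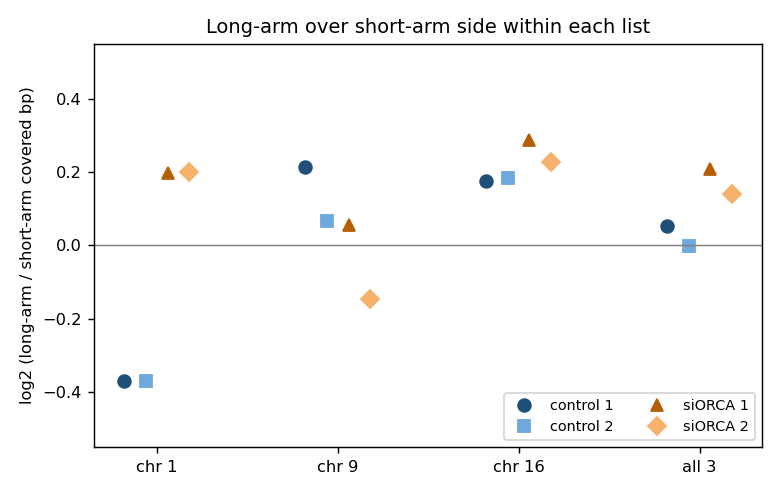
log2 of the long-arm over the short-arm covered bp within each list, for chromosomes 1, 9 and 16 and for all 3 together, 1 point per list, with the line at 0 marking equal coverage of both sides. On chromosome 1 the control points lie at -0.37 and the siORCA points at 0.20, whereas all 4 points of chromosome 16 lie above 0.

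The difference on the long arm of chromosome 1 was spread over many steps near the block. In 12 of its 20 steps of 250 kb the shares of both siORCA lists lay above those of both control lists, against 10.9% of the 11983 steps of the genome with a peak. The opposite order was seen in 1 of the 20 steps, against 18.1% over the genome. In the other 5 flanks 11 of 100 steps had siORCA above and 19 of 100 had siORCA below, which is near those background shares. In stricter lists (peaks with −log10 q from 3 upwards) the long arm of chromosome 1 again had 12 of 20 steps above and 2 below, the other 5 flanks 12 and 18 of 100, and the genome 16.7 and 11%, so the order of the background turned and that of the other flanks did not. In lists shortened to one covered length the counts were 12 and 2 of 20 and 10 and 24 of 100, against 11.7 and 25.5%. Of the 12 steps, 11 lay between 142.25 and 145.25 Mb.

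Those steps form a stretch, chosen after its values were seen and so described without a test. Between 142.25 and 145.25 Mb the control lists held 42.3 and 54.1 kb of peaks and the siORCA lists 106.6 and 84.2 kb. The relative density was 0.737 and 0.821 in control and 1.26 and 1.34 in siORCA, so the stretch was sparser than the rest of the genome in control and denser in siORCA. The remaining steps, from 145.25 to 147 Mb, held 13.7 and 23.8 kb in control and 27.7 and 18.9 kb in siORCA. There the shares of the groups overlapped.

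The peaks of the stretch differed from their lists in strength too. Their median fold enrichment, the authors' value, was 3.89 and 3.79 in the control lists and 5.20 and 4.63 in the siORCA lists, against 3.82, 3.94, 4.51 and 4.21 over the rest of the genome. In the siORCA lists 77 and 69.3% of the peaks reached a −log10 q of 3, against 64.6 and 56.8% elsewhere. In the control lists the share was 41.1 and 32%, against 35.8 and 41.6% elsewhere. The stretch was thus above its own list in both siORCA samples, and above in one and below in the other control sample.

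Windows of 1 Mb were tested across the genome with limma on log2 of the covered bp plus 1000 bp over the total of the list. Of the 30 windows in the flanks, all of which passed the filter on sparse windows, 1 was higher in siORCA and 0 were lower at an adjusted p under 0.05. Over the genome 2 of 2465 windows were higher (0.0811%) and 0 lower, with 67 windows at an unadjusted p under 0.05 in either direction. The median log2 difference was -0.04 over the flank windows and -0.09 over all windows.

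The window called lies on chromosome 1 from 143 to 144 Mb, which is 1 to 2 Mb outside the edge of the block. Its peaks covered 10.2 and 13.5 kb in the control lists and 33.8 and 29.5 kb in the siORCA lists. The shares of the groups did not overlap. The log2 difference was 1.11 ± 0.25 (SE), with an adjusted p of 0.0431 (limma). The number of peaks was 37 and 54 in control and 94 and 89 in siORCA. Their median width was 176 and 170.5 bp in control and 248.5 and 231 bp in siORCA, and their median fold enrichment 4.02 and 3.78 against 5.48 and 4.66. More peaks, wider peaks and higher fold values went together in this window. It was called for its covered bp, which number and width of peaks make up, so neither is separate support. Fold values were higher in siORCA over the whole lists too, with 3.82 and 3.94 in control and 4.51 and 4.21 in siORCA.

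The call is close to the threshold. Among the alternative settings, blocks on replicate and omission of the filter cannot change the log2 difference itself. Over 13 alternative settings the log2 difference of this window stayed between 0.88 and 1.26, but the adjusted p (limma) ran from 0.00611 to 0.999 and missed the threshold in 8 of them. Leaving out control 1, control 2 or siORCA 2 ended the call, with adjusted p (limma) of 0.555, 0.223 and 0.999 and log2 differences of 1.03, 1.19 and 0.99, and so did the replicate number as a block (adjusted p = 0.131, limma), while without siORCA 1 it was 0.00611. A fit without 1 list leaves a group with a single list, which is assumed to vary like the other group, so these p-values rest on the spread of 1 group alone.

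On either side of that window the difference was smaller. From 142 to 143 Mb the peaks covered 11.2 and 14.8 kb in control and 28.1 and 22.5 kb in siORCA, a log2 difference of 0.66 ± 0.26 (SE, adjusted p = 0.931, limma). From 144 to 145 Mb the log2 difference was 0.39 ± 0.25, from 145 to 146 Mb 0.15 ± 0.24 and from 146 to 147 Mb 0.24 ± 0.32. None of these 4 windows passed the test. Each had both siORCA shares above both control shares. How often this order occurs over all 1 Mb windows was not counted, so nothing is drawn from it. From 146 to 147 Mb the gap was small, with shares of 0.0146 and 0.0196% in control and 0.0213 and 0.0198% in siORCA. The windows of the other 5 flanks had log2 differences from -0.22 to 0.28, none past the threshold.

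**Figure D4:**
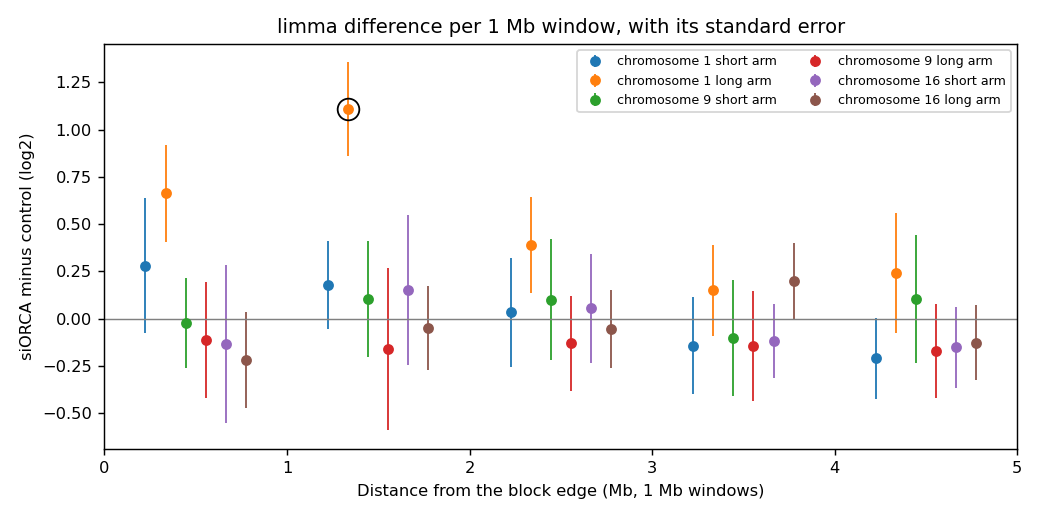
limma log2 difference (siORCA minus control) of the share of covered bp per 1 Mb window against distance from the block edge in Mb, 1 point per window and flank, offset sideways for legibility, with bars of 1 standard error. The circled point, 1 to 2 Mb from the long-arm edge of chromosome 1, is the window past the threshold, at 1.11, and the first window of the same flank lies at 0.66.

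Steps of 250 kb were tested in the same way, with a pseudocount of 250 bp. Of the 120 flank steps 113 had the mean of 1.25 kb needed to enter the test, 18 of 20 on the long arm of chromosome 1 and 19 of 20 in each other flank. None was called in either direction, and neither was any of the 9451 steps of the genome (0%). At an unadjusted p under 0.05 (limma) 8 flank steps were higher and 0 lower, against 103 higher steps (1.09%) and 225 lower steps (2.38%) over the genome. Of the 8 steps, 7 lay on the long arm of chromosome 1 and 1 on the long arm of chromosome 16, from 55.95 to 56.2 Mb. Without control 1 the 8 became 3, and without siORCA 2 they became 4. The median log2 difference was 0.53 over the 18 tested steps of the long arm of chromosome 1, -0.01 over all flank steps tested and -0.07 over all steps.

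The 3 higher steps with the smallest p all lay on the long arm of chromosome 1, and 2 of them adjoin. From 143.75 to 144 Mb the covered length was 3.87 and 4.06 kb in control and 13.8 and 10.4 kb in siORCA, with a log2 difference of 1.29 ± 0.30 (SE, adjusted p = 0.58, limma). From 143.5 to 143.75 Mb it was 1.51 and 2.39 kb in control and 7.06 and 6.96 kb in siORCA, with 1.50 ± 0.39 (adjusted p = 0.994, limma). From 142.5 to 142.75 Mb it was 3.27 and 3.75 kb against 8.86 and 6.71 kb, with 0.84 ± 0.33. In all 3 steps the shares of the groups did not overlap, and none passed the test.

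Among lower steps the smallest p-values belonged to 3 separate flanks. From 34.75 to 35 Mb on the short arm of chromosome 16 the covered length was 2.81 and 4.75 kb in control and 3.83 and 1.71 kb in siORCA, with a log2 difference of -0.72 ± 0.44 (SE). From 116.75 to 117 Mb on the short arm of chromosome 1 it was 8.26 and 9.82 kb against 11.3 and 5.08 kb, with -0.48 ± 0.30. From 53.45 to 53.7 Mb on the long arm of chromosome 16 it was 6.83 and 3.8 kb against 4.83 and 3.25 kb, with -0.59 ± 0.38. None passed the test (adjusted p = 0.994 in each, limma). These values rest on single lists. The chromosome 16 short-arm step ran from -1.03 without siORCA 1 to -0.40 without siORCA 2, and the chromosome 1 step from -0.83 to -0.14 without the same lists. The chromosome 16 long-arm step had -1.09 without control 2 and -0.09 without control 1.

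Joined into regions, the peaks of the flanks recurred between lists about as often as elsewhere. Of the 5225 regions 547 (10.5%) were in all 4 lists and 3047 (58.3%) in 1 list, against 10.7 and 60.1% over the genome. Regions in both siORCA lists and neither control list numbered 327 (6.26%), against 5.44% over the genome. Regions in both control lists and neither siORCA list numbered 100 (1.91%), against 1.67% over the genome. The first class outnumbered the second genome-wide as well.

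On the long arm of chromosome 1 the classes were less balanced. Of its 707 regions 94 (13.3%) were in both siORCA lists only and 10 (1.41%) in both control lists only, a ratio of 9.4. The same ratio was 2.18 to 2.9 in the other 5 flanks and 3.25 over the genome. In lists shortened to the same covered length the counts were 63 and 6 on the long arm of chromosome 1, a ratio of 10.5, against 145 and 106 in the other 5 flanks, a ratio of 1.37, and 17838 and 11029 over the genome, a ratio of 1.62. Among peaks that reached a −log10 q of 3 they were 85 and 2, against 214 and 16 in the other flanks and 26435 and 1974 over the genome, where the ratio was 13.4. An excess of siORCA-only regions in the stricter lists was thus present over the genome too. Within the called window 36 of 131 regions were in both siORCA lists only, none was in both control lists only, and 19 were in all 4 lists. That window was called for higher siORCA coverage in these same lists, so its counts are no further support.

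Regions found in all 4 lists also had their own order of widths on this flank. In the long-arm flank of chromosome 1, 36 of 80 such regions (45%) had more covered bp in both siORCA lists than in both control lists, against 24.7% over the genome. The opposite held for 5 of the 80 (6.25%), against 11.4% over the genome. In the other flanks the first share was 18.5 to 25.4%. The median covered bp of these 80 regions was 230 and 279 bp in the control lists and 443 and 380 bp in the siORCA lists, while over the genome it was 347, 313, 369 and 386 bp. Regions listed for siORCA alone and wider shared regions thus both occurred on this flank. Both are parts of the covered bp by which this flank stood apart, so neither is separate support.

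**Figure D5:**
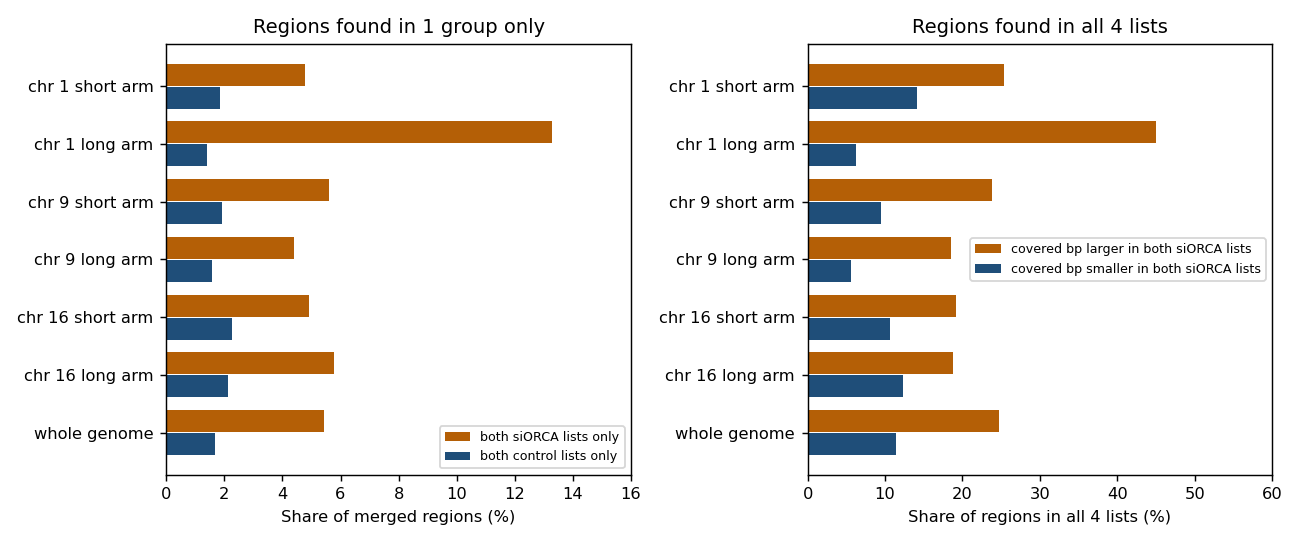
Left, share in percent of the merged regions of each flank and of the whole genome that were found in both lists of 1 group and in neither list of the other. Right, share in percent of the regions found in all 4 lists whose covered bp was larger (orange) or smaller (blue) in both siORCA lists than in both control lists. The long arm of chromosome 1 stands at 13.3% in the left panel and 45% in the right panel, against 5.44 and 24.7% over the genome.

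The region in all 4 lists with the largest mean covered length was taken from each flank. That of the long arm of chromosome 1 spans 145076941 to 145079449, 3077 kb from the edge, and its peaks covered 904 and 1047 bp in control and 1986 and 1940 bp in siORCA. The authors' fold enrichment of its strongest peak was 5.38 and 6.12 in control and 19.5 and 12.3 in siORCA. It was wider in both siORCA lists than in either control list, and its fold values were higher. Higher fold values in both siORCA lists were also seen for the short-arm regions of chromosome 9 (5.18 and 4.41 against 8.08 and 5.52) and chromosome 16 (5.08 and 4.38 against 23.4 and 7.24), described next, and siORCA 1 gave 26.4 and 20.3 to the long-arm regions of those chromosomes. The corresponding region of the short arm, 116750156 to 116751898, covered 395, 471, 1484 and 304 bp, so its large value comes from siORCA 1 alone.

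The chromosome 9 regions had like widths in all lists. That of the short arm, 44197755 to 44199905, covered 1921, 1898, 1805 and 1995 bp. That of the long arm, 79393025 to 79395267, covered 1336, 1563, 1173 and 1653 bp. In neither did the groups separate. On chromosome 16 the short-arm region 30739349 to 30742855 covered 2302, 1718, 682 and 1756 bp, with siORCA 1 the lowest. The long-arm region 55607434 to 55609115 covered 1466, 1010, 1569 and 1682 bp, with both siORCA lists above both control lists.

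The widest regions of 1 group only were mostly wide in 1 list. The widest siORCA-only region of the long arm of chromosome 1, 145101639 to 145102508, covered 149 bp in siORCA 1 and 865 bp in siORCA 2, and the widest control-only region, 142750962 to 142751367, covered 199 and 341 bp. Its short arm had the siORCA-only region 118340171 to 118341026 (109 and 856 bp) and the control-only region 119327721 to 119328495 (146 and 775 bp). Chromosome 9 had siORCA-only regions at 40764180 to 40765074 (815 and 197 bp) and 77649528 to 77650463 (855 and 270 bp). Such regions show presence in a list, not an absence of signal in the other group.

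Some of the other regions of this set were as uneven, and those of chromosome 16 at 31786473 and 54729529 were less so. The control-only regions of chromosome 9, 42019889 to 42020419 and 81529297 to 81530606, covered 170 and 531 bp and 143 and 1170 bp. On chromosome 16 the siORCA-only regions were 31786473 to 31787409 (566 and 372 bp) and 57141097 to 57142089 (193 and 876 bp). Its control-only regions were 33366533 to 33367626 (140 and 1029 bp) and 54729529 to 54730329 (501 and 421 bp). Fold enrichment in all of these single-group regions lay between 3.21 and 7.73.

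Peaks began close to the edge at some blocks and far from it at others. The nearest peak start on the long arm of chromosome 1 lay 39.2 kb (control 1), 177.6 kb (control 2), 192.7 kb (siORCA 1) and 89.6 kb (siORCA 2) from the edge. For the short arm of chromosome 16 it lay 1.79 to 6.59 kb away, and for the long arm 23.2 to 23.3 kb away in all 4 lists. For the short arm of chromosome 9 the distance was 91.5 to 104.3 kb, on its long arm 6.59 to 39.1 kb, and on the short arm of chromosome 1 it was 4.34 kb in control 2 and 56.6 kb in the other lists. The agreement on the long arm of chromosome 16 and the scatter on the long arm of chromosome 1 are the extremes. The edges are rounded positions and no satellite annotation was used. Distances of this size therefore do not place peaks against the satellite sequence itself.

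The longest stretch with no peak start in any list was 155.1 kb, on the short arm of chromosome 16 from 34427068 to 34582148. Chromosome 9 had gaps of up to 140.8 kb on the short arm and 110.9 kb on the long arm. The longest gap of the long arm of chromosome 1 was 88 kb, from 142089562 to 142177584, so it lies within the sparse first step of that flank. It was 59.9 kb on the short arm of chromosome 1 and 57.3 kb on the long arm of chromosome 16.

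How far the lists share bp was measured by the Jaccard index, the bp common to a pair divided by the bp in either. Over all flanks it ran from 0.186 (the control pair) to 0.289 (the siORCA pair), close to the 0.185 to 0.291 of the whole lists. On the long arm of chromosome 1 the siORCA pair had 0.418, the control pair 0.18 and the pairs between groups 0.197 to 0.245. The siORCA lists thus shared more of their bp there than any other pair did, as a description of 4 lists with no test. This order was not particular to the flank. Inside the blocks the siORCA pair had 0.427, the control pair 0.233 and the pairs between groups 0.212 to 0.345.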

How the data were processed

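Alignment and peak calling used BWA, SAMtools and MACS2 with the T2T-CHM13 build, per the submitters' processing notes. Versions, settings and the caller's background are not given in the sources used here. As deposited by the authors there is 1 broad-peak list per sample, with a score, a fold enrichment (ratio), a −log10 p and a −log10 q per peak, and the lowest deposited −log10 q is 1.30. Peaks were assigned to flanks, 250 kb steps and 1 Mb windows by their start. Steps and windows were tiled over the genome from the block edges. Log2 shares (pseudocounts of 250 and 1000 bp, minimum means of 1.25 and 5 kb) were fitted with limma 3.58.1 in R 4.3.3 (lmFit, eBayes with trend) with Benjamini-Hochberg adjustment over all tested, at a threshold of 0.05. These log2 differences understate changes of sparse steps. The procedure was run on simulated data with the same noise in every step or window. The lists differ in this, so the simulation does not give its error rate here. Single values were compared by exact permutation. Python 3.11.15, numpy 2.4.6 and pandas 2.3.3 were used.

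Named are steps and windows past the threshold, or, where none passed, the 3 each way with the smallest p, and per flank the region in all 4 lists with the largest mean covered bp, the widest region of 1 group only, the peak nearest to the edge and the longest gap. The flanks and tests were chosen with earlier results of these data known, among them the higher siORCA coverage near 143 Mb of chromosome 1, which is no independent support. Alternatives were stricter lists, lists shortened to one covered length, single replicates omitted, a replicate block, clipping at borders, 3 Mb flanks, flanks without the nearest 500 kb, numbers of peaks, another denominator, a larger pseudocount, no filter, median centring and cyclic loess, and, chosen after seeing the data, a crossed block and region and step counts in the altered lists. No T2T-CHM13 sequence or annotation was used here, so regions carry no gene names or sequences. The genomic DNA samples were not analysed here.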

Additional observations from a re-analysis of the deposited data

How the results depend on the processing

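The differences in share of all 6 flanks, of the 3 long-arm flanks and of the long arm of chromosome 1 kept their direction under every alternative. The 2 against 2 samples cannot pass the threshold, so these p-values say nothing about stability. Leaving out a list could not turn these differences, since the groups did not overlap, and the replicate block leaves a difference of means as it is. Only the altered lists, flank borders, counts and denominator could have turned these differences. Their sizes moved. The chromosome 1 long arm ran from 0.0286 (number of peaks) to 0.0793 percentage points (stricter lists), the 3 long-arm flanks from 0.0286 to 0.0808 (same settings), the 6 flanks from 0.0214 (without siORCA 1) to 0.0703 (stricter lists), and the log2 difference of sides on chromosome 1 from 0.30 (number of peaks) to 0.85 (same covered length). The difference in the 3 short-arm flanks turned from -0.00887 to 0.0142 percentage points in 3 Mb flanks and to 0.00287 by number of peaks. Other differences changed sign as follows, in flanks whose groups overlap and in the sides of chromosomes 9 and 16, whose groups do not. In stricter lists chromosome 1 short arm had 0.00879 and chromosome 9 short arm -0.0104, and the log2 difference of sides on chromosome 9 was 0.00084. In 3 Mb flanks chromosome 1 short arm had 0.00773, chromosome 16 short arm 0.00362 and long arm -0.00648, with -0.12 for its sides. Without the nearest 500 kb chromosome 1 short arm had 0.000257. With 1 replicate left out the ranges were -0.0126 to 0.0123 (chromosome 1 short arm), -0.00506 to 0.0112 (chromosome 9 short arm), -0.0259 to 0.00239 (chromosome 16 short arm) and -0.0152 to 0.0155 (chromosome 16 long arm). The cause of these turns was not tested.

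The count of flank windows higher in siORCA went from 1 to 0 in stricter lists, with the larger pseudocount, with median centring, with cyclic loess and with the replicate block, and ranged from 0 to 1 with 1 replicate left out. Centring and loess moved the median of all windows from -0.09 to 0.01 and -0.01. The replicate block left 0 flank steps called and the share differences unchanged. Deviations of same-numbered samples correlated at -0.46 over windows and -0.31 over steps, so same-numbered samples did not deviate together. These correlations cannot settle whether the samples were paired, which the labels do not state. A crossed replicate block called 1 flank window and 0 flank steps. Depth is unknown, the number of lists limits precision, and the peak lists do not show signal below the caller's threshold.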

Other observations

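Just inside the blocks, coverage was low at most edges. The first Mb inside the block had a relative density of 0.0448 ± 0.0107 (SD, n = 4 lists) at the short-arm edge and 0.0261 ± 0.0132 at the long-arm edge of chromosome 1, 0.00907 ± 0.00737 at the short-arm edge of chromosome 9 and 0.00509 ± 0.0071 at the long-arm edge of chromosome 16. The long-arm edge of chromosome 9 had 0.19, 0.222 and 0.321 in control 1, control 2 and siORCA 1 and 0 in siORCA 2. At the short-arm edge of chromosome 16 the first Mb inside had 0.404 ± 0.0816, against 0.4 ± 0.131 just outside. Coverage did not step down at that edge as set here. The flank outside the long-arm edge of chromosome 1 was the one that differed most between the groups. The first Mb inside that edge had 0.0349 (control 1), 0.0321 (control 2), 0.00649 (siORCA 1) and 0.0309 (siORCA 2). The siORCA values were the lower ones, but siORCA 1 had a single peak there and every other list only 4. These peaks covered 0.669 kb (control 1), 0.705 kb (control 2), 0.183 kb (siORCA 1) and 0.648 kb (siORCA 2). That is too little to read an order of the groups from, and the order was not tested.

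Inside the blocks as a whole, peaks of the siORCA lists were wider, with medians of 184 to 206 bp in control and 244 and 272.5 bp in siORCA, whereas over the rest of the genome the medians were 216 and 189 bp in control and 167 and 212 bp in siORCA. The covered share of the blocks was 0.223 and 0.2% in control and 0.224 and 0.222% in siORCA, with overlapping groups.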
